A study of Homo sapiens with 4 samples.

Results

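Log ratios of p53 response genes are described here in A549 cells, a human lung adenocarcinoma line, that overexpress let-7a-3, against their parental cultures. The 9 genes asked for were PLK2, PHLDA3, CDKN1A, GADD45A, BTG2, CCNG1, MDM2, SESN1 and TP53I3. A gene counted as measured where a probe carried its symbol and no other in the platform annotation. This held for 6 genes with 8 probes, out of 12483 genes and 26629 probes. BTG2, CCNG1 and MDM2 were not analysed here. The genes were chosen by their p53 link with earlier results of these arrays known, and the mean log ratios of PLK2 and PHLDA3 over the 4 arrays were among the values used. Their log ratios over the 4 arrays are therefore a description that supports nothing, and the counts of calls given for them below are not evidence of a difference. The gene lists compared below were also chosen with earlier results known, so their counts are a description too.

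The 4 arrays were two-colour arrays, each with RNA of 1 let-7a-3 culture in one channel and RNA of 1 parental culture in the other. Both kinds of culture were otherwise untreated and grew in the same serum-containing medium. The dyes were swapped, with arrays 1 and 3 in one orientation (A) and arrays 2 and 4 in the other (B). Let-7a-3 is 1 of the genes that encode the microRNA let-7a. The sources used here do not say how many transfected lines the let-7a-3 cultures stand for. The parental control does not separate transfection and selection from let-7a-3 itself. The cell line could not be checked against marker levels, because the files hold ratios and no intensities.

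Values are log ratios as deposited. The sources used here give neither the log base nor the numerator, so no fold is stated. Nor do they say whether ratios of swapped arrays were turned before deposit. If they were, the same sign on all arrays means the same culture, and otherwise it means the same dye. If the numerator is the other culture, every sign below turns. Each gene was split into a part common to all 4 arrays (the shared component, equal to the mean) and a part of opposite sign in the 2 orientations (the alternating component, given with the sign of arrays 1 and 3). The array medians lay between -0.0022 and 0.0174 and the standard deviations between 0.173 and 0.193. Over all probes the Pearson correlation was 0.43 between arrays 1 and 3 and 0.56 between arrays 2 and 4. Between arrays of opposite orientation it lay from -0.16 to 0.06. Over the whole table the arrays were thus alike only within an orientation. The value after ± is the standard deviation of a gene or probe over the 4 arrays, whose number limits the precision.

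The transcription factor p53 is held low in unstressed cells by MDM2, the ubiquitin ligase that marks it for degradation and is itself a p53 target. DNA damage and other stresses release it, and it then raises genes that stop the cell cycle, repair DNA, restrain growth signalling or start cell death. It binds DNA through pairs of a short motif, the p53 half-site.

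The overexpressed RNA is shown first, because it defines the comparison. The let-7a-3 hairpin (RefSeq, GRCh38.p14, chr22:46112749-46112822, plus strand) gives the mature strand let-7a-5p, in capitals in the hairpin. In the mature strand the capitals mark the seed, bases 2 to 8, through which a microRNA pairs with its targets.
let-7a-3 hairpin: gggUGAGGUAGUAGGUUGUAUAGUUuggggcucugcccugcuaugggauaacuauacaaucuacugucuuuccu
let-7a-5p: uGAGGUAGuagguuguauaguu

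The second pair of sequences shows the p53 half-site in the genes described. RefSeq promoter windows of 300 bases, 250 before and 50 after the start, were found for 7 of the 9 genes (13 windows, since some genes have several starts). The p53 half-site, whose reverse complement is the same motif, so that 1 search covers both strands, occurred in 2 of the 13, in PLK2 and in 1 of the 3 SESN1 windows. It occurred in 6.63% of all 35116 windows. The 250 bases before the start are printed for these 2 windows, with the half-site in capitals. The PLK2 stretch is chr5:58460087-58460336 (GRCh38.p14, minus strand), and its half-site begins 132 bases before the start. The SESN1 stretch is chr6:109008989-109009238 (minus strand), with the half-site 49 bases before the start. Only exact matches inside these windows were counted. A gene without a match can therefore still have p53 sites, with mismatches or farther from the start. A match describes letters and is no evidence of binding.
PLK2: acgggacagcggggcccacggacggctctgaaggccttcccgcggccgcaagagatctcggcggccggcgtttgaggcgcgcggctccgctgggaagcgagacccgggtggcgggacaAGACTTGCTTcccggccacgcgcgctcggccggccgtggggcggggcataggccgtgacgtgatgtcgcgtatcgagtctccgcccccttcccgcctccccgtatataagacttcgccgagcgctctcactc
SESN1: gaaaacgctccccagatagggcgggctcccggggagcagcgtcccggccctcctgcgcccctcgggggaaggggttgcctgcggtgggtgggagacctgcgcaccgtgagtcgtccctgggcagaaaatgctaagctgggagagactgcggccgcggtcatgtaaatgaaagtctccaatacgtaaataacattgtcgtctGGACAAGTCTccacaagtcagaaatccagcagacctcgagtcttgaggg

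PLK2, a stress-induced polo-like kinase that acts at centrioles and at synapses, had the log ratio farthest from 0 of the genes described. Its single probe read -1.40 on array 1, -1.12 on array 2, -1.37 on array 3 and -1.19 on array 4. All 4 values were negative, and the arrays of orientation A lay below those of orientation B. The mean was -1.27 ± 0.14. Among all 26629 probes, counted from the most negative, PLK2 had rank 10 on array 1, rank 25 on array 2, rank 6 on array 3 and rank 10 on array 4. By its mean it had rank 8. Its mean was -1.39 in orientation A and -1.16 in orientation B, so that its value was large and of 1 sign in both. With quantile normalization the mean became -1.54.

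PHLDA3, which competes with AKT for membrane lipids and so restrains AKT signalling, had the next most negative mean, -0.21 ± 0.12. The probe read -0.32 on array 1, -0.12 on array 2, -0.30 on array 3 and -0.10 on array 4. All 4 values were negative, and the arrays of orientation A lay below the others, with means of -0.31 and -0.11. Its place among all probes differed accordingly: percentile 4.69 on array 1 and 3.26 on array 3, against 20.3 on array 2 and 23.6 on array 4.

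CDKN1A and GADD45A belong to the cell cycle arm of the response. The first encodes p21, the inhibitor of cyclin-dependent kinases through which p53 halts the cycle. Its probe read -0.32 on array 1, 0.07 on array 2, -0.26 on array 3 and 0.07 on array 4. The sign followed the dye orientation, with means of -0.29 in A and 0.07 in B, and the mean of all 4 arrays was -0.11 ± 0.21. GADD45A, a growth arrest and DNA damage protein that binds PCNA and p21, read -0.29 on array 1, -0.08 on array 2, -0.05 on array 3 and -0.06 on array 4. All 4 were negative, but array 1 stood apart from the rest, and without it the mean of -0.12 ± 0.11 became -0.06.

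SESN1 and TP53I3 had means close to 0, while single arrays lay farther out. SESN1, a sestrin that restrains mTORC1 and supports antioxidant defence, had 2 clones. The first read -0.06, 0.15, 0.07 and -0.11 on arrays 1 to 4, and the second 0.11, 0.09, 0.09 and -0.17. Neither had 1 sign throughout, array 4 was the lowest in both, and the means were 0.01 ± 0.12 and 0.03 ± 0.13. TP53I3, an oxidoreductase linked to p53-dependent cell death, also had 2 clones. The first read -0.13, 0.27, -0.02 and -0.04 on arrays 1 to 4, and the second -0.003, 0.21, -0.30 and 0.13. Array 2 was the highest in both, and the means were 0.02 ± 0.17 and 0.01 ± 0.23. With clones averaged, TP53I3 had a mean of -0.11 in orientation A and 0.14 in B, which cancel in the mean of all arrays. The half-site shown above lay in only 1 of the SESN1 windows, and a link between half-sites and log ratios was not tested.

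**Figure D1:**
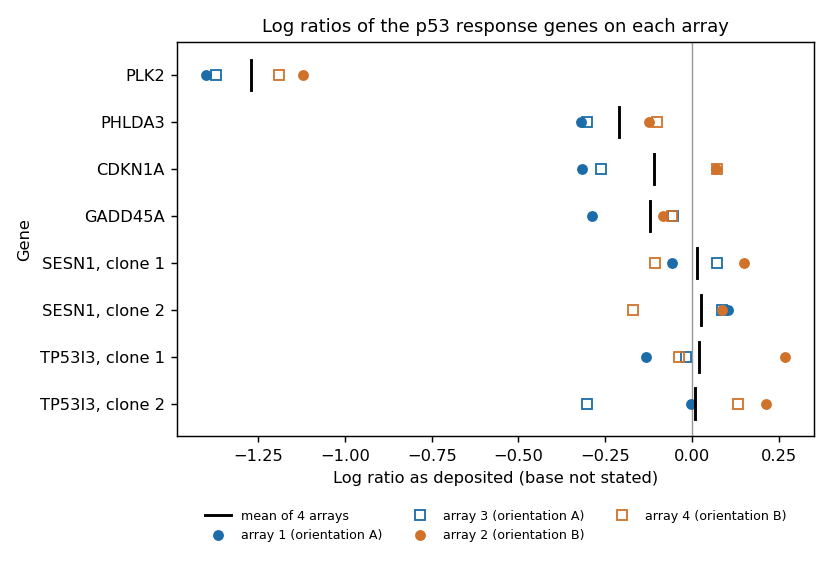
Log ratios as deposited (horizontal axis, base not stated) of the 8 probes of the 6 measured p53 response genes. Filled and open blue symbols are arrays 1 and 3, filled and open orange symbols arrays 2 and 4, and black bars the means; PLK2 lies between -1.40 and -1.12 and no other probe below -0.32.

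In order of the mean the genes ran PLK2 (-1.27), PHLDA3 (-0.21), GADD45A (-0.12), CDKN1A (-0.11), TP53I3 (0.02) and SESN1 (0.02), with clones averaged. PLK2 did not overlap any other member on any array. From PHLDA3 to SESN1 each gene overlapped its neighbour in the order, so these 5 were not separated by their spread. In 3 of the 6 genes (PLK2, PHLDA3 and GADD45A) the log ratio was below 0 on all 4 arrays, which held for 6.94% of all genes. In limma's fit over all 12483 genes PLK2 and PHLDA3 were past an adjusted p of 0.05, 2 of 6, both negative. In that fit 3.04% of all genes were called, and 1.41% were called with negative values. As the choice of genes used this contrast, nothing is read from either count. The number called became 1 (PLK2) when array 2, array 4 or the dye term was left out, 3 without array 3, where GADD45A was added, and 0 with no moderation. Without array 3, array 1 is the only array of orientation A, and the spread comes from arrays 2 and 4 alone. Array 1 is also where GADD45A stood apart, so its call there carries little weight. In limma's fit over all probes PLK2 was called and PHLDA3 was not (adjusted p = 0.0701).

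The alternating component was not used to choose the genes. None of the 6 was called in it by limma (adjusted p from 0.0532 to 0.743), where 3.29% of all genes were called. CDKN1A came closest, at -0.18 (standard error 0.04; adjusted p = 0.0532 in limma), with orientation A below orientation B on all arrays. Its adjusted p ranged from 0.0107 to 0.277 over the alternatives, and it was under 0.05 without array 1, without array 3, with array weights and with 1 probe per gene. By adjusted p PLK2 followed at -0.11 (limma adjusted p = 0.133), then TP53I3 at -0.13 (adjusted p = 0.144; 0.0440 without array 1) and PHLDA3 at -0.10 (adjusted p = 0.165). GADD45A stood at -0.05 (limma adjusted p = 0.552) and SESN1 at 0.03 (adjusted p = 0.743). By unadjusted p, 4 of 6 were under 0.05 in limma, where 25.6% of all genes were, and without moderation 0 of 6 were called after adjustment. The 2 orientations did not overlap in 4 of the 6 genes, which held for 57% of all genes.

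**Figure D2:**
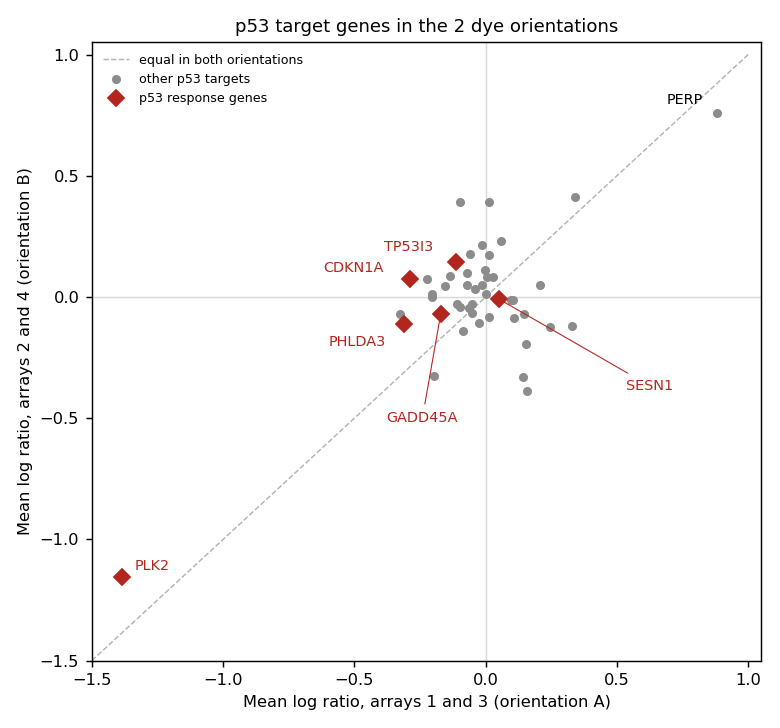
Mean log ratio in orientation A (arrays 1 and 3, horizontal axis) against orientation B (arrays 2 and 4, vertical axis) for the 6 measured p53 response genes (red) and 42 other p53 targets (grey), probes averaged per gene. PLK2 (-1.39 and -1.16) and PERP (0.88 and 0.76) lie far from 0, each with 1 sign in both orientations. PLK2 lies above the dashed line of equal values, as CDKN1A (-0.29 and 0.07) does, and PERP lies below it.

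The probes most like the PLK2 probe over the 4 arrays were found by Euclidean distance among the 20975 other probes with 1 symbol. They belonged to COL4A6, a basement membrane collagen chain (distance 0.07), MFGE8, a secreted glycoprotein that bridges apoptotic cells to phagocytes (0.17), and COTL1, an actin-binding protein (0.21). LBH, a transcriptional cofactor of limb and heart development (0.32), and the fibrillar collagen chain COL11A1 (0.34) came next. The nearer of the 2 COL4A6 probes read -1.43 on array 1, -1.13 on array 2, -1.35 on array 3 and -1.25 on array 4, close to PLK2 on each. MFGE8, COTL1 and COL11A1 also had 2 probes each, of which only the nearer is described. None of the 5 is on the p53 lists used here. With 4 arrays such likeness mostly reflects a similar mean.

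The next question is how other p53 targets behaved. Of 48 listed, 42 were measured; BAX, PIDD1, FDXR, CD82, GLS2 and IER5 were not analysed here. PERP, a p53 and p63 target at desmosomes that is linked to cell death, had a positive log ratio. It read 0.83 on array 1, 0.67 on array 2, 0.93 on array 3 and 0.85 on array 4 (mean 0.82 ± 0.11; limma adjusted p = 7.52e-05). All 4 values were positive and the orientations overlapped. ALDH4A1, a mitochondrial enzyme of proline breakdown, had a negative mean (-0.20 ± 0.15; limma adjusted p = 0.0456). It read -0.35 on array 1, -0.03 on array 2, -0.30 on array 3 and -0.11 on array 4, all negative. These were the 2 called of 42, 1 in each direction, and 3.04% of all genes were called.

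The other 40 targets did not pass. The vitamin D receptor VDR was at -0.26 ± 0.16 (limma adjusted p = 0.0610) and TIGAR, a regulator of glycolysis, at -0.21 ± 0.15 (adjusted p = 0.0694), both negative on 4 of 4 arrays. GDF15, a secreted stress cytokine, was at 0.38 ± 0.26 (limma adjusted p = 0.0761). It was positive on 4 of 4 arrays, from 0.03 on array 1 to 0.65 on array 3. The death receptor FAS (-0.07 ± 0.08), the repair genes DDB2 (-0.04 ± 0.08) and XPC (-0.07 ± 0.07), the nucleotide reductase subunit RRM2B (-0.03 ± 0.06) and the cell death genes BBC3 (0.11 ± 0.27) and PMAIP1 (0.06 ± 0.15) lay nearer to 0. These 6 were picked as textbook targets after their values were seen, and it is their means that lay nearer to 0. BBC3 changed sign with the dye orientation, at 0.33, -0.19, 0.33 and -0.05 on arrays 1 to 4. The median of the 42 was 0.00097, with 21 positive and 21 negative members, and that of all genes was 0.0069. The count of calls rose to 13 without array 3 and 5 without array 1, and was 1 when array 2 or the dye term was left out. ALDH4A1 was not called when array 2, array 4, the dye term or the moderation was left out, nor with 1 probe per gene. In limma's fit over all probes its adjusted p was 0.0952. PERP was called in every setting tried except the one with no moderation.

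**Figure D3:**
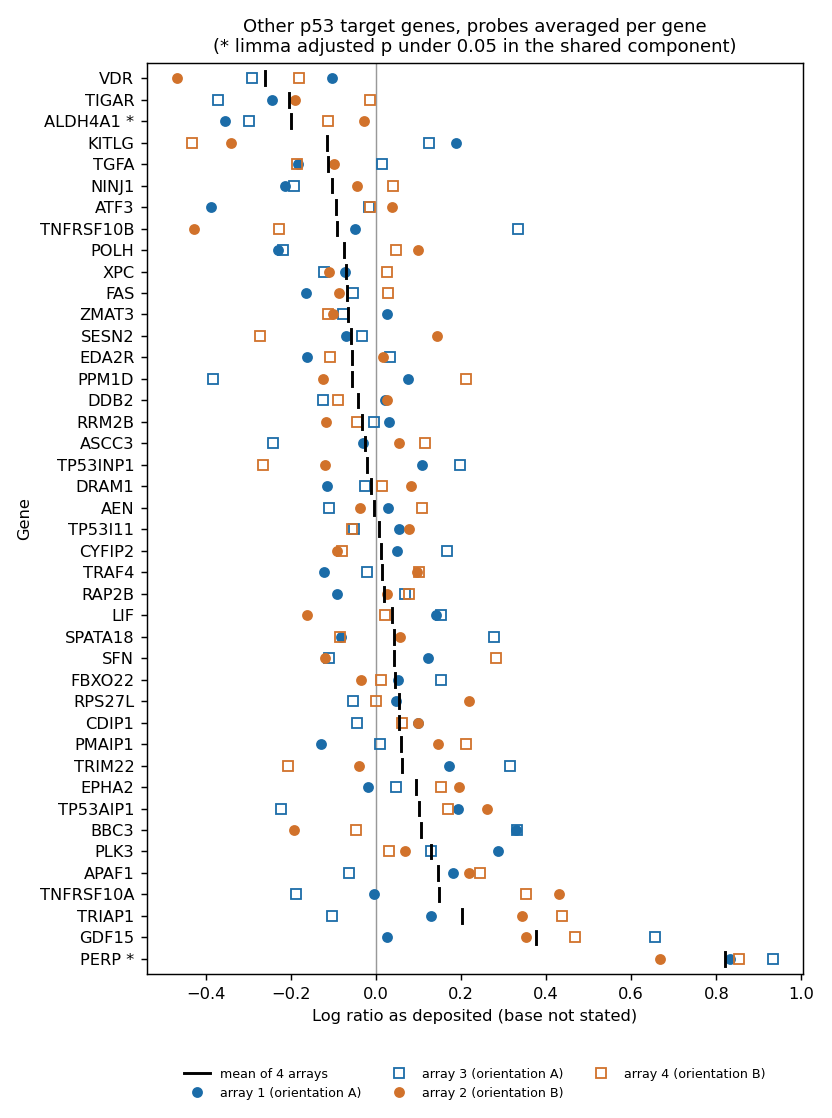
Log ratios as deposited (horizontal axis) of 42 p53 targets other than those described first, sorted by the mean (black bar), with 1 symbol per array. PERP, at 0.82, lies apart from the rest, which have means between -0.26 and 0.38.

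Members of the same protein families were compared with the genes described. Of 21 relatives 18 were measured, and 3 were called, all positive. Of all genes 3.04% were called in either direction, and 1.63% were called positive. BTG1, an antiproliferative relative of BTG2, read 0.52 on array 1, 0.39 on array 2, 0.90 on array 3 and 0.38 on array 4 (mean 0.55 ± 0.24; limma adjusted p = 0.00274). CCNG2, the cyclin G related to CCNG1 and known as a FOXO target, read 0.23, 0.31, 0.26 and 0.43 on arrays 1 to 4 (mean 0.31 ± 0.09; limma adjusted p = 0.00767). TOB1, of the BTG and TOB family, read 0.06, 0.42, 0.07 and 0.32 on arrays 1 to 4 (mean 0.22 ± 0.18; adjusted p = 0.0337 in limma). All 3 were positive on 4 of 4 arrays. In each the 2 orientations did not overlap, with CCNG2 and TOB1 higher in B and BTG1 higher in A. This held for 15 of the 18 relatives and for 57% of all genes. Without array 4, BTG1 alone was called, and TOB1 was not called when array 2 or the dye term was left out either. In limma's fit over all probes TOB1 had an adjusted p of 0.0725.

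The polo-like kinases did not share the value of PLK2. PLK3, a stress-responsive relative, was at 0.13 ± 0.11 (limma adjusted p = 0.217) and positive on 4 of 4 arrays, while the mitotic kinase PLK1 was at 0.00098 ± 0.13 and PLK4, which starts centriole duplication, at -0.03 ± 0.22. None of these was called. PHLDA1 (-0.06 ± 0.20) and PHLDA2 (-0.02 ± 0.13) were not called either. GADD45B (0.14 ± 0.15; limma adjusted p = 0.159), the BTG2 relative BTG3 (0.10 ± 0.14; adjusted p = 0.342) and CDKN1B, which encodes p27 (-0.11 ± 0.34), did not pass. The 2 clones of CDKN1B averaged -0.44 on array 1 and 0.33 on array 4. SESN2 was at -0.06 ± 0.17. The median of the 18 was -0.004, with 9 positive and 9 negative.

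**Figure D4:**
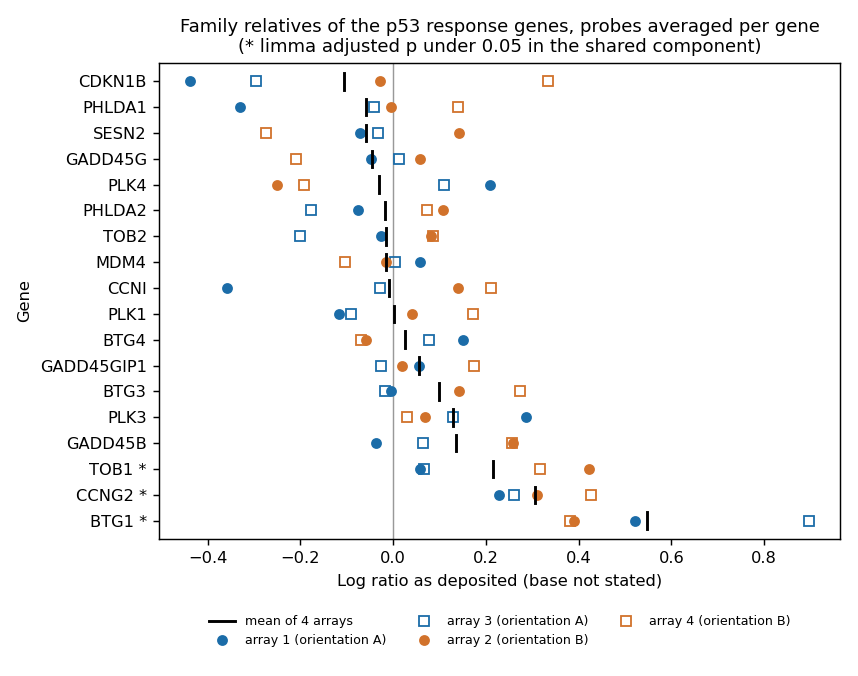
Log ratios as deposited (horizontal axis) of the 18 measured relatives, probes averaged per gene, sorted by the mean (black bar), with 1 symbol per array. BTG1, CCNG2 and TOB1, marked with an asterisk, have means of 0.55, 0.31 and 0.22, and their 4 arrays lie above 0.

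Upstream of these genes, 20 genes that regulate the response were measured. ATR and CHEK2 were not analysed here. None of the 20 was called in the shared component by limma, and by unadjusted p 3 were under 0.05, where 14.6% of all genes were. Without moderation 0 of the 20 were called. The 3 under 0.05 by unadjusted p were PRKDC, RPL5 and PPP1R13B. The DNA damage kinase PRKDC was at 0.14 ± 0.17 (limma adjusted p = 0.163). RPL5, a ribosomal protein that binds MDM2, was at -0.12 ± 0.09 (limma adjusted p = 0.190). PPP1R13B, a p53 cofactor of the ASPP family, was at 0.11 ± 0.14 (limma adjusted p = 0.265). The 2 PRKDC clones disagreed, with means of 0.30 and -0.03. MDM4, the partner of MDM2, had 4 clones with means between -0.04 and 0.02. The list's values lay between -0.12 and 0.14. With the probe of the largest statistic per gene 1 was called, PRKDC, as it was without array 1, and 2 were called without array 3.

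Downstream of p21, p53 lowers cell cycle genes through the DREAM repressor complex. Of 22 such genes 20 were measured, and 2 were called, both negative. Of all genes 3.04% were called in either direction, and 1.41% were called negative. AURKB, a mitotic kinase of the chromosomal passenger complex, read -0.49 on array 1, -0.25 on array 2, -0.59 on array 3 and -0.09 on array 4 (mean -0.35 ± 0.23; limma adjusted p = 0.00552). CKS2, a small subunit of cyclin-dependent kinases, read -0.38, -0.15, -0.26 and -0.23 on arrays 1 to 4 (mean -0.26 ± 0.09; limma adjusted p = 0.0190). Both were negative on 4 of 4 arrays. Centromeric histone CENPA (-0.14 ± 0.12), CKS1B (0.12 ± 0.13) and CHEK1 (0.11 ± 0.10) came next and did not pass. The median of the 20 was -0.02, with 9 positive and 11 negative. The count was 0 without the dye term, 1 without array 2 (AURKB), 1 without array 4 (AURKB) and 6 without array 3.

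Markers of cell identity were measured on the same arrays. Of 8 lung epithelial markers FOXA1 (0.33 ± 0.12) and KRT8 (0.39 ± 0.13) were called in limma, both positive. EPCAM (0.09), SFTPC (0.07) and CDH1 (-0.05) were not. Of all genes 3.04% were called in either direction, and 1.63% were called positive. The 2 FOXA1 clones had means of 0.07 and 0.59. Of the 3 CDH1 clones 2 were positive (0.08 and 0.07) and 1 negative (-0.29), and CDH1 was called with 1 probe per gene. Of 10 fibroblast, endothelial and blood cell markers NKG7 was called (-0.26 ± 0.11), and TEK (-0.16), COL1A2 (0.10) and LUM (0.09) were not. Against this single call stand the 3.04% of all genes called in either direction and the 1.41% called negative. NKG7 was not called when array 2, array 4 or the dye term was left out. As the values are ratios, none of these shows whether a marker was present, and their part in the values above was not tested.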

How the data were processed

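Scanner files of the two-colour arrays were processed by the authors in ArrayMagic with variance-stabilizing normalization (VSN), per the series' design text, which also names limma. The deposited table gives 1 log ratio per probe and array. The sources used here do not give spot filters, averaging or versions. VSN compresses ratios of dim spots. The labels call the arrays replicates, and p-values measure the spread between these arrays.

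No further normalization was done. Of 26629 probes 20976 had 1 gene symbol in the platform annotation, 848 several and 4805 none. Gene IDs of 20963 matched the GRCh38.p14 gene table, and 0 symbols changed. Probes of a gene were averaged. The dye orientation came from the RNA source numbers in the labels. In limma 3.58.1 (R 4.3.3) 2 coefficients, shared and alternating, were fitted over all genes and over all probes, leaving 2 residual degrees of freedom plus 5.89 from moderation for genes and 7.22 for probes. P-values are two-sided and adjusted over the whole table by Benjamini and Hochberg's method, with a threshold of 0.05. The fit was also run on data simulated from its own fitted values with normal noise, and nothing is read from that run. The members and lists were chosen with earlier results of these data known. Named are all members' probes, called genes of each list, up to 3 more with the largest statistic, and the 5 nearest to PLK2. A few others were added for reference after their values were seen. Alternatives are given in the closing section. Plots were made in matplotlib 3.10.9 (Python 3.11.15).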

Additional observations from a re-analysis of the deposited data

Results flagged for a closer look

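2 of 36 sets of 4 values tested (the members' probes and the named list genes) had 1 array far from the other 3 by Dixon's ratio of the gap to the whole range, taken at its 95% critical value. Chance alone passes it in about 1 of 20 sets. The GADD45A probe had a ratio of 0.880, with array 1 at -0.29 below the other arrays at -0.08 to -0.05. The second SESN1 clone had a ratio of 0.930, with array 4 at -0.17 below the others at 0.09 to 0.11. The first SESN1 clone was also lowest on array 4 (-0.11).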

How the results depend on the processing

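Leaving out 1 array gave 1 to 3 called members in the shared component and 0 to 2 in the alternating one, 1 to 13 other p53 targets, 0 to 2 regulators, 1 to 4 relatives, 2 lung epithelial markers, 1 to 6 DREAM genes, 0 to 2 fibroblast, endothelial and blood markers, and 179 to 1471 of all genes in the shared and 39 to 2292 in the alternating component. These fits have 1 residual degree of freedom fewer. The orientation left with 1 array adds nothing to their estimate of spread, so their counts are no measure of how firm a call is. Without the dye term there were 1 called member, 1 other target, 0 DREAM genes, and 0 fibroblast, endothelial and blood markers. In the shared component 156 of all genes were then called. For the alternating component this setting left out the shared term instead, and 10 of all genes were called. Without moderation there were 0 in every list of the shared component, 0 of all genes shared and 1 alternating. At an adjusted p of 0.1 there were 6 other targets, 1 member in the alternating component (CDKN1A), 2 fibroblast, endothelial and blood markers, and 613 and 1400 of all genes. With the probe of the largest statistic per gene there were 1 member in the alternating component, 1 regulator, and 634 and 1787 of all genes. Array weights gave 1 member in the alternating component (adjusted p = 0.0499 for CDKN1A in limma). Median centring, scaling, quantile normalization and robust moderation changed none of the counts given in this paragraph by over 1.5 times. The means of the members stayed within 1 standard deviation in all settings except PLK2 with quantile normalization (-1.54). No paired analysis was possible because each array already holds both cultures and all arrays form 1 group. The table holds no intensities, so signal over background is unknown.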

Other observations

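In the alternating component 3 of the 42 other p53 targets were called, against 3.29% of all genes. TNFRSF10A, a death receptor for TRAIL, had -0.24 (limma adjusted p = 0.0395), and read -0.01 and -0.19 on arrays 1 and 3 against 0.43 and 0.35 on arrays 2 and 4. KITLG, the ligand of the receptor KIT, had 0.27 (limma adjusted p = 0.0261) and the BH3-only cell death gene BBC3 0.22 (adjusted p = 0.0397). Among the regulators NPM1, a nucleolar chaperone that binds ARF, had -0.22 (limma adjusted p = 0.0395), and among the fibroblast, endothelial and blood cell markers the endothelial receptor TEK had -0.20 (adjusted p = 0.0439). None of the 18 relatives and none of the 20 DREAM genes was called there in limma, and by unadjusted p 9 and 6 were under 0.05, where 25.6% of all genes were. Without array 2, without array 4 and without moderation none of these lists had a call in this component, nor without the shared term. Without array 1 there were 12 calls among the other targets, 5 among the relatives and 4 among the DREAM genes, and without array 3 there were 7, 5 and 6. TEK was not called with median centring, and with quantile normalization PLK4, which is on the relatives' and the DREAM list, was.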
